A study of Rattus norvegicus with 12 samples.

Results

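The genes of the creatine kinase system and of oxygen storage were followed in rat hearts after myocardial infarction. They were taken by symbol as 9 named genes, the creatine kinases Ckm, Ckmt2, Ckmt1 and Ckb, the creatine transporter Slc6a8, the creatine synthesis enzymes Gatm and Gamt, the adenylate kinase Ak1 and myoglobin, Mb. The count table lists 8 of them among its 30560 genes, and 7 had the 10 counts in total that a gene needed to be tested, out of 18182 genes tested. Ak1 was not analysed here, and Ckmt1 was listed with too few reads. Each library came from the heart of 1 rat, in 3 groups of 4 male Wistar rats, 7 weeks old at surgery. Sham rats had the chest opened without a coronary ligature and received vehicle, 0.5% carboxymethylcellulose. MI rats had a permanent ligature of the left anterior descending coronary artery and received the same vehicle. MI + UA rats had the ligature and received urolithin A (UA), a gut microbial metabolite known to induce mitophagy, by daily gavage for 8 weeks. The dose and the first day of treatment are given differently in different descriptions of the study and are not stated here. RNA came from formalin-fixed, paraffin-embedded sections of the middle part of the left ventricle, which hold muscle and whatever scar the block contained. Rat 66 carries an MI + UA label, but the study's own animal list places it among the vehicle-treated MI rats. It was counted as MI + UA, and results that turn on it are given both ways.

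Creatine kinase moves a phosphate group between ATP and creatine, so that phosphocreatine can refill ATP at the myofibrils and ion pumps. The mitochondrial enzyme makes phosphocreatine where ATP is produced, and the cytosolic enzymes use it where ATP is spent. Heart muscle takes up creatine from blood rather than making it, and myoglobin stores oxygen next to the mitochondria of the same cells.

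Ckm, Ckmt2, Slc6a8 and Mb are the 4 members that fell after infarction, and Ckb is the remaining creatine kinase gene with enough reads to test. Their sequences of 250 bases before the gene start, from RefSeq on assembly GRCr8, are shown so that the genes that fell together can be read beside one that did not pass the test. The reads were counted on another assembly, mRatBN7.2, so the coordinates hold for GRCr8 only. All 8 listed members matched an entry. Capitals mark CANNTG (E-box), TATAAA and, in Ckb, the MEF2 element.
Ckm, chr1:88189211-88189460, plus strand: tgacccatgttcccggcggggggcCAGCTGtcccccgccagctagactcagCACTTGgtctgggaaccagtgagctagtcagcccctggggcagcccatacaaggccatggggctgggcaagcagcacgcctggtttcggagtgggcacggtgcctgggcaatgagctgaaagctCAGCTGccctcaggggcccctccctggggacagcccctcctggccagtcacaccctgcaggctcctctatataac
Ckmt2, chr2:24845512-24845761, minus strand: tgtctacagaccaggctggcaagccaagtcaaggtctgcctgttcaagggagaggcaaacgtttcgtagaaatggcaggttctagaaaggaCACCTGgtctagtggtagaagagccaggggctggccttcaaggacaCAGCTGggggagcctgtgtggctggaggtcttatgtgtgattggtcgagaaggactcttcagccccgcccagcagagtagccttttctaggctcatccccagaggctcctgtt
Slc6a8, chrX:156535767-156536016, plus strand: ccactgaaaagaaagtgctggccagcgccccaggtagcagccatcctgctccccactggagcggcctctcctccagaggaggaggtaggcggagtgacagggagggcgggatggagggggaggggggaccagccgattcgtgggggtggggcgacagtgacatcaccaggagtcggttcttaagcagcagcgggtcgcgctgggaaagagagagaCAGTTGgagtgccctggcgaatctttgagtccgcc
Mb, chr7:110647743-110647992, minus strand: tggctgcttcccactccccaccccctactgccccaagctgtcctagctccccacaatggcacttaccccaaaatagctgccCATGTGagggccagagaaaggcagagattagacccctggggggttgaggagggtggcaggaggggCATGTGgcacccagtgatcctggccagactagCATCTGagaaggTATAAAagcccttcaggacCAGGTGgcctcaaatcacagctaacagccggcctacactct
Ckb, chr6:136553465-136553714, minus strand: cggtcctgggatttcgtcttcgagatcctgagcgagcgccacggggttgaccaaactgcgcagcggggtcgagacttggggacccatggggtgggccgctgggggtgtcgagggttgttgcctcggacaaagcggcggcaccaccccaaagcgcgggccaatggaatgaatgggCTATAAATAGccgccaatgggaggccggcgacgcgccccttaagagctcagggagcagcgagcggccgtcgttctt
The search covered both strands for the E-box (CANNTG), the TATA box (TATAAA), the ERR element (TNAAGGTCA), MEF2 (YTAWWWWTAR) and CArG (CCWWWWWWGG). N is any base, W is A or T, Y is C or T and R is A or G. Only exact matches to these patterns were counted, so sites that differ from them by a base were missed. CANNTG occurred 3 times before Ckm, 2 times before Ckmt2, 4 times before Mb and 1 time each before Slc6a8 and Gatm, and it was not found before Ckb, Gamt or Ckmt1. This is a common motif, present in 65.5% of the 33469 windows of this length. The MEF2 element was found before Ckb alone among the members, as CTATAAATAG from -76 to -67, and it overlaps that gene's TATAAA match. It occurred in 2.96% of all windows. TATAAA was found before Ckb and Mb and in 12.9% of all windows. Exact matches to TNAAGGTCA (1.04% of windows) and CArG (1.5%) were found before none of the 8.

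Reads on genes numbered from 6228706 to 19031695 per library, and the 13 mitochondrially encoded genes took from 50.2% to 58.6% of them. The share of reads that fell on genes was 50.4 to 53.4% in Sham, 47.6 to 49.8% in MI and 46.2 to 50.8% in MI + UA, so the Sham and MI libraries did not overlap in it. The labels give no batch, and the part of this share in the results below was not tested. Cardiomyocyte markers were measured in every library, with 11 of the 12 in the table and none at 0. Values are CPM, the counts scaled to a common library size, after TMM scaling. Values of single rats are given in the order 12, 17, 32 and 38 for Sham, 36, 57, 61 and 89 for MI and 29, 58, 64 and 66 for MI + UA. Levels are compared between groups for 1 gene at a time, since no transcript length was used.

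Infarcted hearts given vehicle had 4 members lower and 0 higher than Sham hearts, and 3 did not pass the test. Ckm, the cytosolic muscle enzyme, fell by 37.5%, and Ckmt2, the mitochondrial enzyme of striated muscle, fell by 35.4%. Slc6a8, which carries creatine into the cell, fell by 27.1% and Mb fell by 27.2%. The test was edgeR's quasi-likelihood test with Benjamini-Hochberg adjustment over all 18182 genes, and a gene was called at an adjusted p under 0.05. Among all genes tested, 5.53% were called lower in MI, against 4 of 7 members. The median log2 fold change was -0.46 over the 7 members and 0.03 over all genes.

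Ckm (ENSRNOG00000016837) is the gene that codes for the M subunit, which docks to the sarcomere. Its levels were 238, 249.98, 244 and 259 CPM in the 4 Sham rats, 162, 159, 143 and 155 CPM in the MI rats and 163, 136, 175 and 173 CPM in the MI + UA rats. Every infarcted heart, with or without UA, lay below every Sham heart. The means were 248 ± 8.74 CPM in Sham and 155 ± 8.21 CPM in MI (SD, n = 4 each), or -0.68 ± 0.08 as log2 fold change with its standard error (edgeR adjusted p = 2.23e-05).

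Ckmt2 codes for the sarcomeric mitochondrial creatine kinase, which sits between the mitochondrial membranes. It stood at 521, 536, 581 and 574 CPM in Sham, 369, 379.6, 326 and 355 CPM in MI and 416, 353, 391 and 463 CPM in MI + UA. Again no infarcted heart reached the Sham range, while the MI and MI + UA rats overlapped. The MI mean was 357 ± 23.1 CPM against 553 ± 29.2 CPM in Sham (SD, n = 4 each), or -0.63 ± 0.09 as log2 fold change with its standard error (edgeR adjusted p = 6.83e-05).

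The creatine transporter gene Slc6a8 had 128, 148, 145 and 135 CPM in Sham, 117, 98.0, 96.8 and 92.8 CPM in MI and 116, 108.1, 106 and 121 CPM in MI + UA. The lowest Sham rat was above the highest infarcted rat, by a smaller margin than for either creatine kinase. From Sham to MI the mean went from 139 ± 8.93 to 101 ± 10.6 CPM (SD, n = 4 each), or -0.46 ± 0.09 as log2 fold change with its standard error (edgeR adjusted p = 0.0014).

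Mb, the oxygen-binding globin of muscle, was at 3806, 3925, 4373 and 4591 CPM in Sham, 2910.05, 3314, 2950.28 and 2982 CPM in MI and 3204, 2746, 2983 and 3187 CPM in MI + UA. The Sham rats were all above the infarcted rats, and the 2 infarcted groups covered much the same range. Its mean was 4174 ± 369.97 CPM in Sham and 3039 ± 186 CPM in MI (SD, n = 4 each), or -0.46 ± 0.08 as log2 fold change with its standard error (edgeR adjusted p = 0.000997). These 4 genes were the members whose MI and Sham rats did not overlap, and 7.56% of all genes tested were lower in MI without overlap. In sections of whole tissue, fewer cardiomyocytes and less RNA of a gene per cardiomyocyte cannot be told apart.

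**Figure D1:**
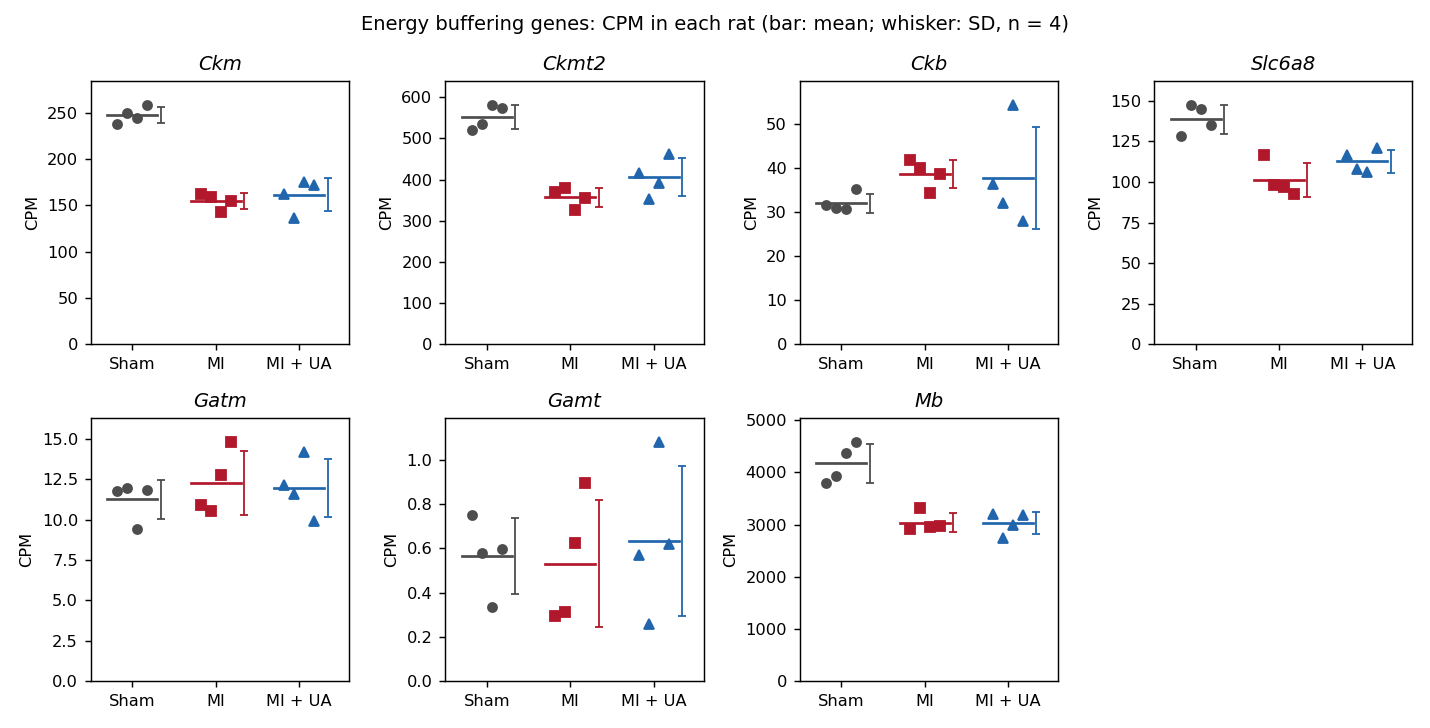
Level of each tested member in CPM (vertical axis from 0) in the 4 rats of each group, with the group mean as a bar and the SD as a whisker. Ckm, Ckmt2, Slc6a8 and Mb separate the Sham rats from all infarcted rats, whereas Ckb, Gatm and Gamt overlap.

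Of the remaining creatine kinases, Ckb did not pass the test and Ckmt1 was not tested. Ckb, the brain-type cytosolic enzyme, is made in many tissues outside striated muscle. It had 31.6, 30.9, 30.6 and 35.3 CPM in Sham, 41.9, 40.1, 34.4 and 38.7 CPM in MI and 36.4, 32.1, 54.4 and 28.0 CPM in MI + UA. An MI rat exceeded a Sham rat in 15 of 16 pairs, but the groups overlapped at their edges, and the log2 fold change of 0.27 did not pass the test (standard error 0.15, 95% interval -0.04 to 0.58, edgeR adjusted p = 0.283). The MI + UA rats spread the most, 37.7 ± 11.6 CPM (SD, n = 4), with rat 64 above and rat 66 below every other heart. Ckmt1, the mitochondrial form known from brain and other non-muscle tissues, had 2 reads in all 12 libraries, 1 in MI rat 36 and 1 in MI + UA rat 29. The 0 reads in Sham allow up to 0.0947 CPM at 3 counts over the group, and the counting limit covers counting error only.

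Creatine synthesis genes were measured at low levels. Gatm, whose enzyme makes the creatine precursor guanidinoacetate, had 11.8, 11.98, 9.43 and 11.8 CPM in Sham, 10.9, 10.5, 12.8 and 14.8 CPM in MI and 12.2, 11.6, 14.2 and 9.90 CPM in MI + UA. All 3 groups overlapped, and its log2 fold change in MI was 0.12 (standard error 0.15, 95% interval -0.18 to 0.43, edgeR adjusted p = 0.678). Gamt, whose enzyme methylates guanidinoacetate to creatine, had only 2 to 11 reads per library, and its means were 0.566 ± 0.172 CPM in Sham, 0.531 ± 0.286 CPM in MI and 0.632 ± 0.340 CPM in MI + UA (SD, n = 4 each). Its 95% interval in MI versus Sham ran from -1.24 to 1.07 on the log2 scale, so a change by a factor of about 2 in either direction was not excluded.

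Between MI + UA and MI, 0 of the 7 members passed the adjusted threshold in edgeR, as did 0% of all genes tested, and DESeq2 also called 0 members. All 7 members overlapped between the groups, while 2.34% of all genes tested did not. One member, Ckmt2, had an unadjusted p under 0.05, against 3.79% of all genes. Its mean was 406 ± 46.0 CPM in MI + UA (SD, n = 4), a log2 fold change of 0.18 from MI (95% interval 0.01 to 0.36, unadjusted p = 0.0438, edgeR adjusted p = 1.00), with an MI + UA rat higher in 13 of 16 pairs. Slc6a8 had the same number of pairs and a log2 fold change of 0.16 (95% interval -0.02 to 0.34). The intervals were narrow around 0 for Ckm, -0.11 to 0.24 with a log2 fold change of 0.06, and for Mb, -0.18 to 0.17. Ckb (-0.35 to 0.24) and Gatm (-0.35 to 0.24) had wider intervals, and that of Gamt ran from -0.88 to 1.26. With rat 66 counted among the MI rats, the log2 difference went to -0.0042 for Ckm, 0.16 for Ckb and 0.10 for Gatm, the opposite sign in each, while that of Ckmt2 went to 0.03 and that of Slc6a8 to 0.07. MI rats enter this comparison and the one with Sham, so values of the 2 are given side by side and not related to each other.

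MI + UA hearts remained lower than Sham hearts at the same 4 genes, with 4.27% of all genes tested called lower. Ckm fell by 34.7% (log2 fold change -0.62, edgeR adjusted p = 7.92e-05), Mb fell by 27.4% (-0.46, edgeR adjusted p = 0.00128) and Ckmt2 fell by 26.6% (-0.45, edgeR adjusted p = 0.00203). Slc6a8 fell by 18.5%, with -0.30 on the log2 scale and an edgeR adjusted p of 0.0336. That last call depended on single rats: it was lost in 6 of the 8 fits that each left out 1 rat, with adjusted p up to 0.101. None of the 4 overlapped with Sham, where 6.46% of all genes were lower without overlap. Ckb, Gatm and Gamt did not pass the test, with log2 fold changes of 0.21, 0.07 and 0.11. The Ckb value rested on single rats, at 0.00013 without rat 64 and 0.34 without rat 66.

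**Figure D2:**
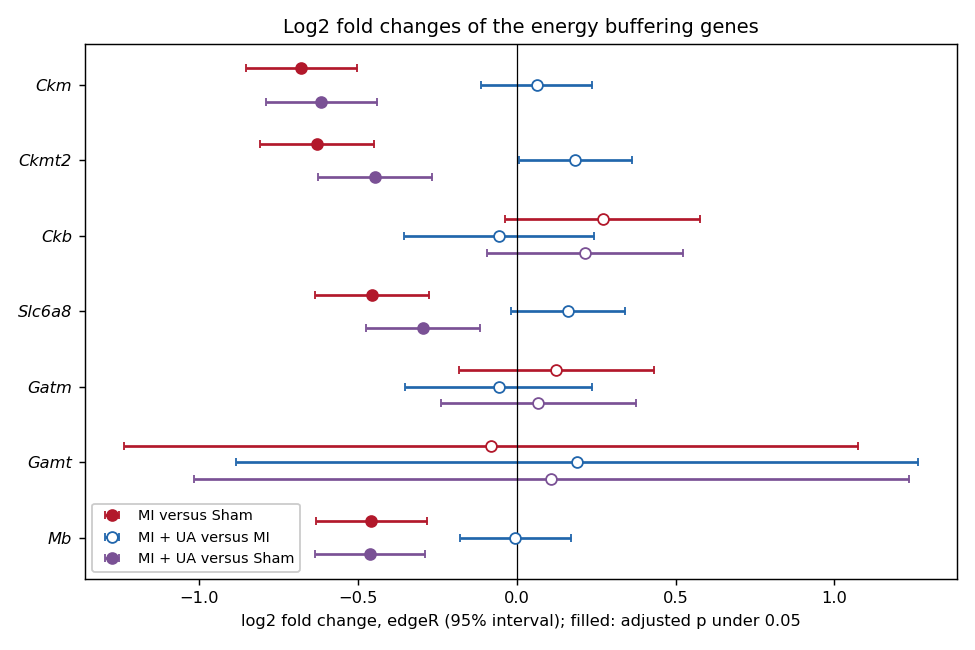
Log2 fold change of each tested member (horizontal axis) in the 3 comparisons, with 95% intervals from edgeR and filled points for an adjusted p under 0.05. Ckm, Ckmt2, Slc6a8 and Mb lie left of 0 against Sham in both infarcted groups, and no point of MI + UA versus MI is filled.

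Ratios between members within a library do not depend on how libraries are scaled. The log2 ratio of Ckb to Ckm was -2.91, -3.01, -2.99 and -2.87 in the Sham rats and -1.95, -1.98, -2.06 and -1.9995 in the MI rats. In MI + UA it was -2.16, -2.08, -1.68 and -2.62. Every infarcted heart had a higher ratio than every Sham heart, and rat 66 was the infarcted heart nearest to Sham. The mean ratio was 1.93-fold higher in MI than in Sham, a difference of 0.95 on the log2 scale (exact permutation p = 0.0286, two-sided and the smallest for 4 rats against 4, and 0.0857 after Benjamini-Hochberg adjustment over 9 tests). In MI + UA it was 1.75-fold higher than in Sham (exact permutation p = 0.0286, adjusted 0.0857) and did not differ from MI beyond the spread (difference -0.14, exact permutation p = 0.600). None of the 9 ratio tests passed after adjustment. Ckm, the denominator, had a log2 fold change of -0.68 in MI versus Sham, against a median of 0.03 over all genes. Ckb had 0.27 and did not pass the test. How many of all genes separate MI from Sham in their ratio to Ckm was not computed.

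The other ratios moved less. The log2 ratio of Ckmt2 to Ckm was 1.16 ± 0.07 in Sham, 1.21 ± 0.03 in MI and 1.33 ± 0.12 in MI + UA (SD, n = 4 each). The groups overlapped in every comparison, and the largest difference, 0.17 between MI + UA and Sham, had an exact permutation p of 0.0571 (adjusted 0.129). The log2 ratio of Mb to Ckm was 4.07 ± 0.10 in Sham and 4.29 ± 0.10 in MI (SD, n = 4 each), without overlap (difference 0.22, exact permutation p = 0.0286, adjusted 0.0857). In MI + UA it was 4.23 ± 0.11 (SD, n = 4) and overlapped both other groups.

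**Figure D3:**
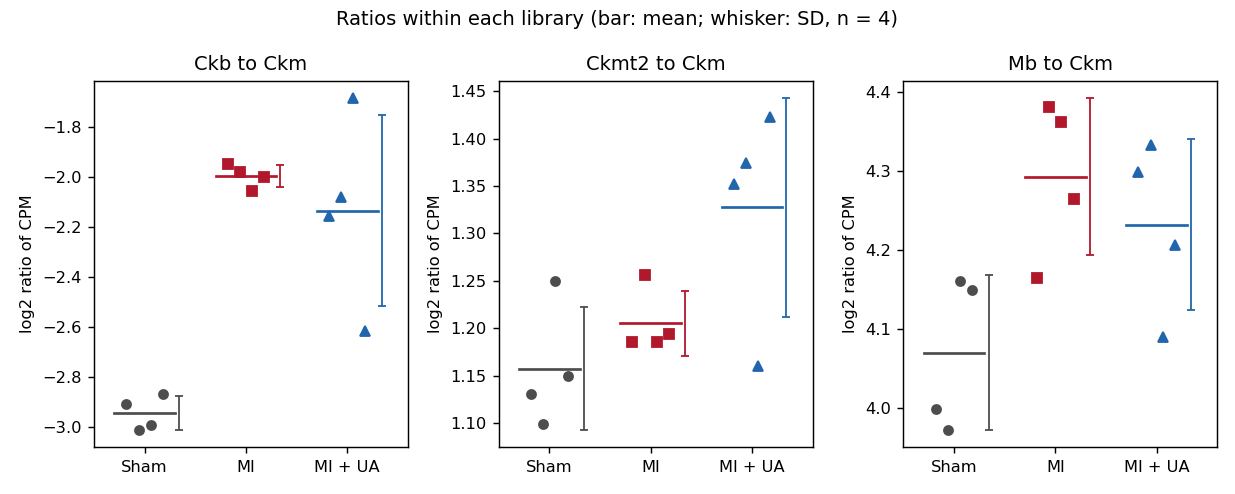
Log2 ratio of CPM within each library (vertical axis, not starting at 0) for Ckb to Ckm, Ckmt2 to Ckm and Mb to Ckm, with group means and SD over 4 rats. The Ckb to Ckm ratio of the infarcted hearts lies above that of all Sham hearts, whose values run from -3.01 to -2.87.

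Markers of the heart's cell types moved with infarction as well. Of the 11 cardiomyocyte markers measured, 10 fell and 0 rose in MI against Sham, and their summed level was 49568 to 56394 CPM in Sham, 35124 to 41364 CPM in MI and 36612 to 48107 CPM in MI + UA. Fibroblast markers were higher for 8 of 10, with summed levels of 1137 to 1445 CPM in Sham, 2202 to 3595 CPM in MI and 2220.12 to 3707 CPM in MI + UA, and 7 of 8 macrophage markers were higher (120 to 139, 213 to 259 and 191 to 266 CPM). Of the smooth muscle markers 3 of 6 were higher and 1 lower, the lower being Des (log2 fold change -0.30). Of the nerve markers 1 of 7 was higher, of the skeletal muscle markers 1 of 5 higher and of the endothelial markers 1 of 7 lower. Of the erythroid markers 0 of 3 and of the adipocyte markers 0 of 3 passed the test, which called 11.4% of all genes in either direction. In MI + UA versus MI, 0 of the 60 marker genes tested passed it in edgeR and 0 in DESeq2, with 6 at an unadjusted p under 0.05, beside 3.79% of all genes. The part of the cell types in the members' differences was not tested.

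Each member was therefore also expressed relative to the mean log2 CPM of the 11 cardiomyocyte markers in the same library, a mean that was 10.71 ± 0.10 in Sham, 10.22 ± 0.06 in MI and 10.28 ± 0.14 in MI + UA (SD, n = 4 each). On this scale Mb and Slc6a8 no longer separated the groups, with MI minus Sham differences of 0.03 and 0.02. Ckm and Ckmt2 remained lower in every MI rat than in every Sham rat, by differences of -0.19 and -0.15. In MI + UA the Ckm difference from Sham was -0.20 with overlapping groups, an MI + UA rat being higher in 2 of 16 pairs. The separations in MI were those of 2 of 7 members, where 0.258% of all genes tested were lower in MI without overlap on this scale. The markers' mean itself fell in MI, which raises genes that did not fall on this scale. On the library scale the markers' own log2 fold changes in MI ran from -1.081 (Myh6) to -0.23 (Actc1). Those of Ckm (-0.68) and Ckmt2 (-0.63) lay within that range. Ckb (0.75) and Gatm (0.60) were higher without overlap, but so were 38.8% of all genes, and the median of all genes stood at 0.52.

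Ckmt2 relative to the markers was -1.72, -1.73, -1.82 and -1.71 on the log2 scale in the MI rats and -1.65, -1.66, -1.61 and -1.58 in the MI + UA rats. All 4 MI + UA rats were above all MI rats, by a mean difference of 0.12, as were 0.528% of all genes tested. Rat 66 had the highest value, so the groups overlap if it is counted in MI and do not if it is left out. The MI + UA rats overlapped the Sham rats in this measure (difference -0.03), whereas on the library scale it did not. Ckm showed no such separation from MI (difference -0.0036). Myh6 had the largest fall of the 11 markers, with a log2 fold change of -1.081 in MI. Leaving it out of the mean, a choice made after seeing the data, gave -0.25 for Ckm and -0.20 for Ckmt2 in MI minus Sham, both without overlap (as for 0.489% of all genes), and 0.15 for Ckmt2 in MI + UA minus MI, without overlap (as for 0.676%). The signs of the small Mb and Slc6a8 differences turned, to -0.03 and -0.04.

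**Figure D4:**
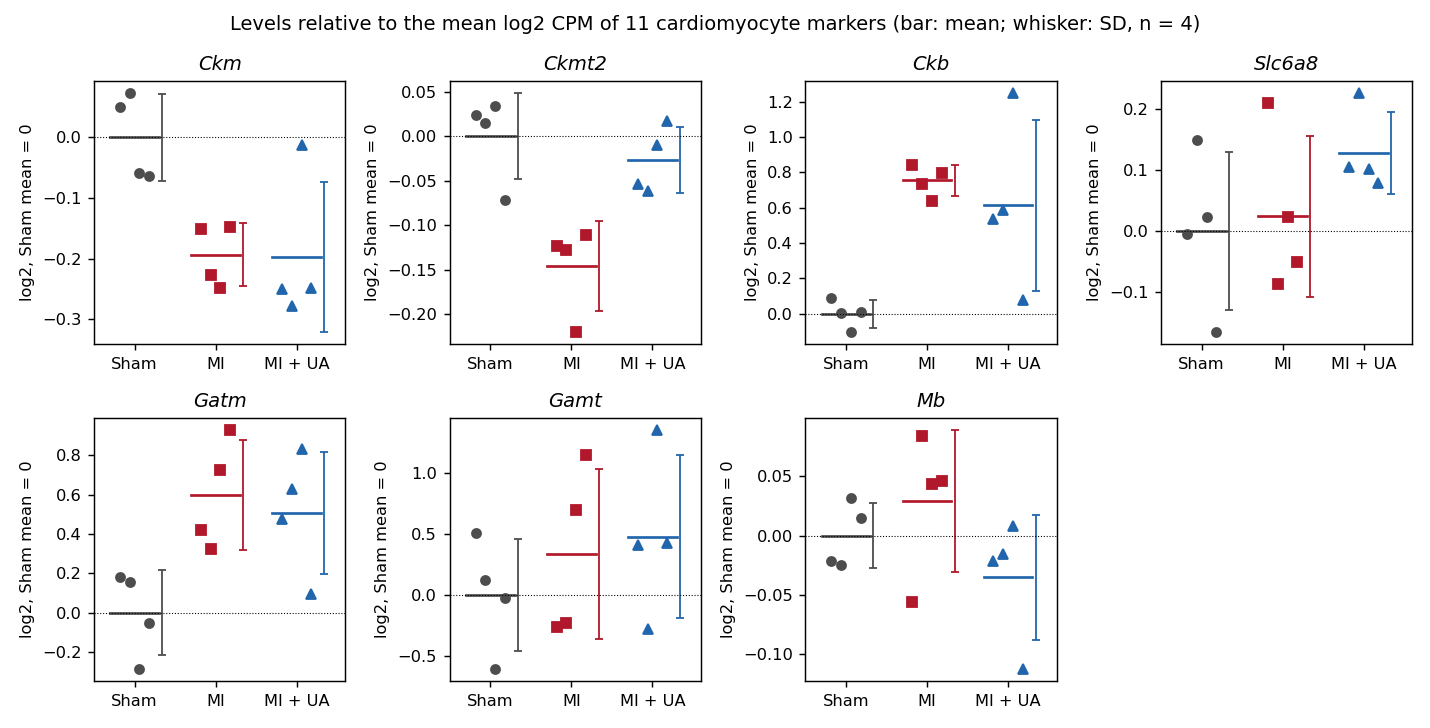
Level of each member relative to the mean log2 CPM of 11 cardiomyocyte markers in the same library (vertical axis, log2, Sham mean set to 0), with group means and SD over 4 rats. The Ckm and Ckmt2 values of the MI rats lie below all Sham rats, and those of Mb and Slc6a8 overlap with Sham.

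Genes that work beside creatine kinase were read from the same fit. Of all genes tested, 5.53% were called lower in MI than in Sham and 11.4% in either direction. The median log2 fold change of the cardiomyocyte markers was -0.43. Mitochondrial exchange genes had 4 of 5 tested members lower in MI and 0 higher, with a median log2 fold change of -0.37. Slc25a4, the heart's main ADP/ATP carrier, went from 679.7 CPM in Sham to 478 CPM in MI, or -0.51 ± 0.08 as log2 fold change with its standard error (edgeR adjusted p = 0.000429). The channels of the outer mitochondrial membrane Vdac1, Vdac3 and Vdac2 followed with log2 fold changes of -0.39, -0.37 and -0.30.

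Among the genes of ATP-consuming proteins that creatine kinase is known to supply, 5 of 8 fell and 1 rose, with a median of -0.39. Myh6, the fast cardiac myosin, had a log2 fold change of -1.081 (edgeR adjusted p = 1.98e-06) and the calcium pump Atp2a2 of -0.49 (edgeR adjusted p = 0.000694). Myh7, the slow cardiac myosin, rose from a mean of 2265 CPM to 3643 CPM, or 0.69 ± 0.21 as log2 fold change with its standard error (edgeR adjusted p = 0.035), and its MI and Sham rats overlapped.

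Enzymes that pass phosphate between other nucleotides, or remove AMP and adenosine, had 1 of 14 tested genes higher and 2 lower, with a median of -0.20, and 11 did not pass. Ak4, an adenylate kinase of the mitochondrial matrix, fell by 0.55 on the log2 scale (standard error 0.14, edgeR adjusted p = 0.0123) and Adk, which phosphorylates adenosine, fell by 0.45 (standard error 0.10, edgeR adjusted p = 0.00356). Ampd2, an AMP deaminase, rose by 0.54 (standard error 0.17, edgeR adjusted p = 0.0388), from 7.33 to 10.8 CPM with overlapping groups. Of 9 AMP-activated protein kinase subunits and upstream kinases, 2 fell, namely Prkab1 with a log2 fold change of -0.42 and Prkaa2, a catalytic subunit, with -0.33, and 0 rose. With 1 Sham or MI rat left out, the call in MI versus Sham held in 8 of 8 fits for Slc25a4, Vdac1, Vdac3, Myh6, Atp2a2, Adk and Prkab1. It was lost for Ak4 without rat 38 and for Prkaa2 without rat 32 or 89. It held in only 3 of 8 fits for Vdac2 (edgeR adjusted p up to 0.145), and in only 2 of 8 for Ampd2 (up to 0.120) and for Myh7 (up to 0.112).

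Of the 12 genes that supply arginine, glycine and methyl groups for creatine, 0 passed the test in edgeR, with a median of -0.09 and 3 at an unadjusted p under 0.05 (Oat, Shmt2 and Mat1a, all lower). DESeq2 called 1 of them, Shmt2. Of the 4 other globins, 0 passed in edgeR or DESeq2, with a median of 0.00082 and 1, Cygb, at an unadjusted p under 0.05. These genes outside the naming rule were singled out after their values were seen. Of all genes tested, 11.4% were called in either direction in MI versus Sham and 23.9% had an unadjusted p under 0.05. In MI + UA versus MI, 0 of the 52 genes tested in these 6 lists passed in edgeR or DESeq2, and 6 had an unadjusted p under 0.05 (3.79% of all genes). In MI + UA versus Sham, where 4.27% of all genes were called lower, the exchange genes Slc25a4, Vdac1 and Vdac3 fell (3 of 5). So did 4 of 8 genes of the myosins, pumps and potassium channel, among them Myh6 and Atp2a2. Of the genes in these 6 lists 0 rose. The calls of these 5 named genes held in 8 of 8 fits that each left out 1 rat. Stk11 (edgeR adjusted p = 0.016), Prkab1 (0.031), Ampd3 (0.0382) and Kcnj11 (0.0479) also passed, the first in 5 of 8 such fits and the others in 2 of 8 each. Kcnj11 overlapped between the groups.

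**Figure D5:**
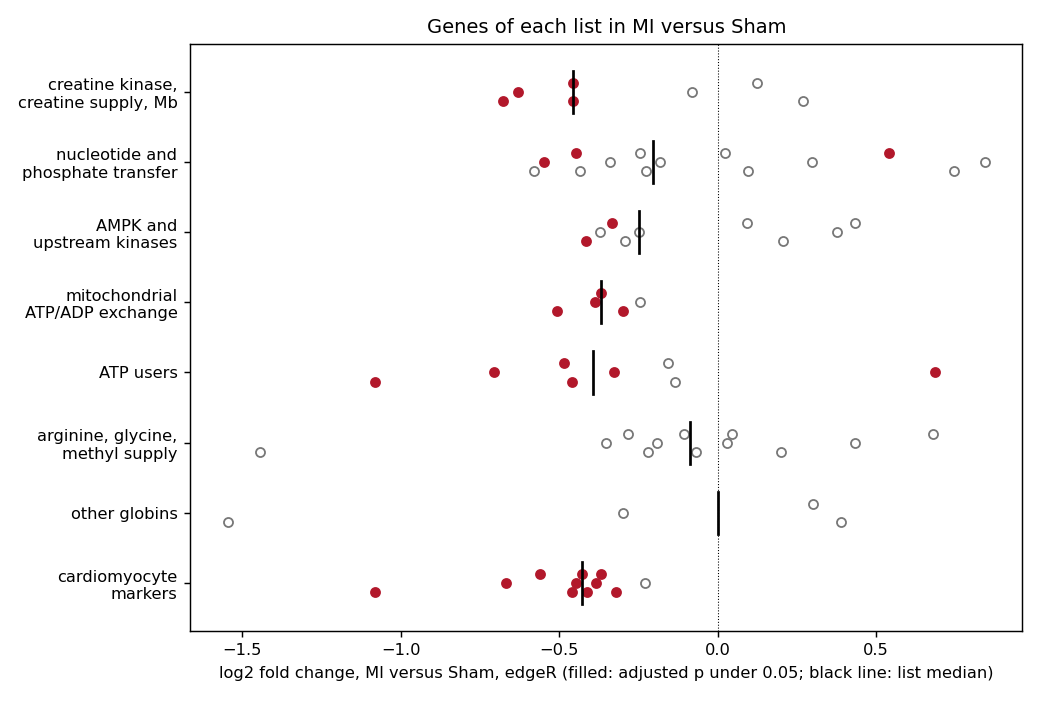
Log2 fold change in MI versus Sham (horizontal axis) of each tested gene of the members, of the 6 lists of neighbouring functions and of the cardiomyocyte markers, with filled points for an adjusted p under 0.05 in edgeR and a black line at each list's median. The members' median of -0.46 lies close to that of the cardiomyocyte markers, -0.43.

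The genes whose levels ran most alike were sought for 4 members by Pearson's r of log2 CPM over the 12 libraries, among 10930 genes with an average log2 CPM of at least 1. The libraries fall into Sham and infarcted ones, so these values describe the group difference and the spread together. Among the 5 closest to Ckm were Acss1 (0.981), Ogdh (0.980), Mdh2 (0.979) and Iqsec1 (0.979). For Ckmt2 they were Phyh (0.980), Prdx3 (0.979), Idh2 (0.979), Pink1 (0.978) and Ogdh (0.973). Ogdh, Mdh2 and Idh2 code for mitochondrial enzymes of the tricarboxylic acid cycle. Likeness was lower for Ckb, whose nearest genes were Tmem268 (0.886), Slpi (0.884), Ninj1 (0.871), RT1-DMa (0.868) and Notch3 (0.845). Among the 5 closest to Gatm were Ddx41 (0.899), RT1-Ba (0.881), Rps12 (0.877) and Os9 (0.855).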

How the data were processed

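Paired-end RNA sequencing was done on 12 rat hearts, 4 per group by the labels, each library from a separate animal. The authors deposited 1 table of raw counts per Ensembl gene, without normalization. The submitters' processing notes name STAR 2.6.1c, HTSeq and MultiQC 1.8 and the build mRatBN7.2. The protocol in the labels describes strand-specific libraries after ribosomal RNA depletion, while their molecule field says polyA RNA, and the strand setting of the counting is not given in the sources used here, so overlapping antisense genes may share reads. All columns matched a sample label (0 unassigned), and 5 summary lines without a gene were left out.

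All genes reaching 10 counts over the 12 libraries were fitted with edgeR 4.0.16 (TMM, quasi-likelihood, 3 groups in one fit) in R 4.3.3, with Benjamini-Hochberg adjustment over all genes and a threshold of 0.05, a procedure tested on simulated data. Log2 CPM used a prior count of 1. Ratios and marker-relative levels were compared over rats with two-sided exact permutation tests (scipy 1.17.1). Each list named up to 4 genes with the largest change among those called, and likeness named 5 genes; some genes these rules pick are not reported here. Alternatives were DESeq2 1.42.0, other filters and scalings, only the groups compared, rat 66 in MI, each rat left out, a prior count of 0.25 and levels relative to cardiomyocyte markers. A ratio of Ak1 to Ckm was planned and not computed. Members and lists were chosen with earlier results of these data known.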

Additional observations from a re-analysis of the deposited data

Results flagged for a closer look

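In 3 of 33 groups of 4 rats examined, 1 rat stood apart from the other 3, with a gap to its nearest neighbour that took most of the group's range. Chance alone gives about 1 such group in 20. Gatm was lowest in Sham rat 32, at a log2 CPM of 3.25 against 3.57 to 3.59 in the others (0.934 of the range). The log2 ratio of Ckmt2 to Ckm was highest in MI rat 57, at 1.26 against 1.19 in the others (0.872 of the range). MI + UA rat 58 had the lowest share of reads on genes, 46.2% against 50.3 to 50.8% in the others (0.882 of the range).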

How the results depend on the processing

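No paired analysis was possible because the groups hold different animals and the labels pair none of them. The calls of Ckm, Ckmt2, Slc6a8 and Mb in MI versus Sham each held in 15 of 15 other fits, with another test, filter or scaling, only the groups compared, rat 66 in MI or 1 rat left out. In MI + UA versus Sham those of Ckm, Ckmt2 and Mb did too, and that of Slc6a8 was lost in 6 fits that left out 1 rat. These fits do not include levels relative to the cardiomyocyte markers. On that scale Mb and Slc6a8 overlapped with Sham in MI, and all 4 genes overlapped with Sham in MI + UA (-0.20 for Ckm, -0.03 for Ckmt2, -0.04 for Mb and 0.13 for Slc6a8). Leaving out each rat gave 1468 to 1941 called genes in MI versus Sham, 1155 to 1895 in MI + UA versus Sham and 0 to 1 in MI + UA versus MI, where a fit of all genes with any count gave 3.

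The log2 ratio of Ckb to Ckm ranged over 0.93 to 0.97 in MI versus Sham, 0.66 to 0.97 in MI + UA versus Sham and -0.29 to 0.023 in MI + UA versus MI without 1 rat, and Mb to Ckm over 0.19 to 0.27 in MI versus Sham. In the first 2 and the last of these the exact permutation p was 0.0571, the smallest that 3 rats against 4 allow. With rat 66 in MI, Ckb to Ckm was 0.15 in MI + UA versus MI and 0.97 in MI + UA versus Sham (exact permutation p = 0.0571), and the log2 differences in MI + UA versus MI were -0.0042 for Ckm, 0.16 for Ckb and 0.10 for Gatm.

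Small differences changed sign without 1 rat. The ranges in MI + UA versus MI were -0.27 to 0.070 for Ckb, -0.035 to 0.040 for Mb, -0.14 to 0.053 for Gatm and -0.083 to 0.59 for Gamt. In MI + UA versus Sham they were -0.015 to 0.16 for Gatm and -0.17 to 0.31 for Gamt, and in MI versus Sham -0.48 to 0.16 for Gamt.

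Relative to the cardiomyocyte markers the sign turned for Mb (0.029), Slc6a8 (0.024) and Gamt (0.34) in MI versus Sham, Slc6a8 (0.13) in MI + UA versus Sham and Ckm (-0.0036) in MI + UA versus MI. Without Myh6, a choice made after seeing the data, it turned for Gamt (0.28) in MI versus Sham and Slc6a8 (0.10) in MI + UA versus Sham. The cause of these changes was not tested. Depth limited Gamt and Ckmt1 the most.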
